A study of Mus musculus with 20 samples.

Results

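The genes described here copy the genome in S phase. A list of 38 DNA replication genes was taken by symbol, and 37 of them have a row among the 17101 genes of the deposited table. Selection by symbol uses no measured value, but the list was drawn up with earlier results of these data known. *Pola1*, the catalytic subunit of DNA polymerase alpha, was not analysed here. All 37 exceeded a mean normalized count of 10 in every comparison and were tested in each.

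RNA was sequenced from donor T cells sorted from the spleens of mouse recipients on day 10 after transplantation, in a model of graft-versus-host disease. The KO donors carried a loxP-flanked *Dnmt3a* gene and Cre recombinase under the *Cd4* promoter, which deletes *Dnmt3a*, a de novo DNA methyltransferase, in CD4+ and CD8+ T cells. The WT donors were their littermates without the deletion. All donors were on the B6 background and 6 to 12 weeks old, and irradiated F1 recipients of 8 to 12 weeks received bone marrow with the purified T cells. Cells were sorted as CD4+, CD8+ or, from KO donors, CD4+CD8+ double-positive (DP), which gives 5 groups of 4 libraries and 20 in all. KO animals are numbered 1, 2, 3 and 4, and WT animals 2, 3, 5 and 6. The labels give only the number, and equal numbers within a genotype are taken here to mark cells of the same animal. The values below follow this order. WT DP cells were not analysed here.

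Replication is prepared in G1, when the origin recognition complex, Cdc6 and Cdt1 load the Mcm2 to Mcm7 ring onto DNA. At the start of S phase, Cdc45 and the GINS complex turn that ring into an active helicase, and polymerases alpha, delta and epsilon copy the strands with the help of the clamp PCNA. E2F transcription factors raise most of these genes as cells pass from G1 into S phase, so that in activated T cells their transcripts are known as markers of division.

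The upstream sequences of 4 members are shown to give the motifs that these promoters share and lack. Mcm5 and Mcm6 are helicase subunits, Prim1 differed between KO and WT CD8+ cells, and Rpa2 had the lowest fitted CD4+ to CD8+ ratio. Each run holds the 250 bases before a RefSeq transcript start on GRCm38.p6, read 5′ to 3′ on the gene's strand, and capitals mark matches to the E2F motifs TTTCGCGC, TTTGGCGC, TTTCCCGC and TTTGGCGG and to CCAAT, the core bound by NF-Y, on either strand. The Mcm5 run ends past the start of the annotated gene at 75109468, so that its last bases lie within the gene.
Mcm5, chr8:75109259-75109508, forward strand: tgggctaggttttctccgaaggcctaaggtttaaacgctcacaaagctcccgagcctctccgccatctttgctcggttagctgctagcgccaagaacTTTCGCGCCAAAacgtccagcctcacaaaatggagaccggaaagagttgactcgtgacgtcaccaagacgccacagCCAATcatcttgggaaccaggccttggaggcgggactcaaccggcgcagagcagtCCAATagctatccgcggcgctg
Mcm6, chr1:128359706-128359955, reverse strand: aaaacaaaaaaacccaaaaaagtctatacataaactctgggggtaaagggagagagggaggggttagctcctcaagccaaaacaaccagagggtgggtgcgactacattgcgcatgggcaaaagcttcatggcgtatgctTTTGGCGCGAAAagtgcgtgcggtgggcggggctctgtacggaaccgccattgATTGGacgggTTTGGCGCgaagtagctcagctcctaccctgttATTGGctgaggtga
Prim1, chr10:128014965-128015214, forward strand: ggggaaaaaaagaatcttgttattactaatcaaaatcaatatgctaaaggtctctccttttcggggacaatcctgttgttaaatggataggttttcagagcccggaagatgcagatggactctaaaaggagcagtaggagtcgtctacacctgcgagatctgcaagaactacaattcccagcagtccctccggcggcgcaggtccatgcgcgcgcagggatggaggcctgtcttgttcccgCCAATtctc
Rpa2, chr4:132768110-132768359, forward strand: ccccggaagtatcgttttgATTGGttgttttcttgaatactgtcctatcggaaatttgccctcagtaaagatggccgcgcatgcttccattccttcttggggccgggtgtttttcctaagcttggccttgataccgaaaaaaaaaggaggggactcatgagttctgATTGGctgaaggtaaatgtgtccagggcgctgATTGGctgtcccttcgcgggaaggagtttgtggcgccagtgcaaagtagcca

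The Mcm5 run held 2 overlapping E2F matches and 2 CCAAT matches, and the Mcm6 run 3 E2F matches, 2 of them overlapping, and 2 CCAAT matches. In the Prim1 run there was 1 CCAAT match, in the Rpa2 run there were 3, and neither held any of the 4 E2F motifs. Over windows of 250 bases before to 50 after the start, RefSeq had an entry for 31 members, and 13 of these (41.9%) held at least 1 of the 4 E2F motifs in at least 1 promoter, against 730 of the 27025 genes with a promoter entry and 2.37% of 32851 promoters. The 13 were *Cdc6*, *Cdt1*, *Chaf1a*, *E2f2*, *Lig1*, *Mcm3*, *Mcm5*, *Mcm6*, *Mcm7*, *Pola2*, *Pold1*, *Rfc3* and *Rpa1*. CCAAT was present for 17 of the 31 (54.8%), against 41.1% of all genes, and the cell cycle homology letters TTTGAA or TTTAAA for 8 (25.8%), against 30.6%. A match describes letters in this window and was not tested as a binding site.

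*Dnmt3a* was lower in every KO library (650.4 to 2007 normalized counts) than in every WT library (3542 to 5171). The *Cd4* and *Cd8a* transcripts followed the sorted subsets, with departures. *Cd8a* stood at 3771 in KO CD4+ cells of animal 1 against 78.3 to 586 in the other CD4+ libraries. *Cd4* was at 302 to 458 in KO CD8+ against 9.88 to 79.6 in WT CD8+ libraries, and *Cd8b1* at 550 to 4515 in KO CD4+ against 285 to 549 in WT CD4+ libraries. Each library had 37547651 to 46966318 reads on genes, and DP cells of KO animal 3 had the fewest genes with reads (11783, against up to 14677). Markers of other blood cells varied by animal: the sum of 10 neutrophil genes lay at 2.94 to 185.2 in all subsets of KO animals 1 and 2, at 516.2 to 587.5 in animal 4, at 2851 to 7492 in animal 3 and at 1882 to 4507 in the WT libraries. Of 10 erythroid markers, 4 were in the table, and *Hba-a1*, *Hba-a2*, *Hbb-bs*, *Hbb-bt*, *Alas2* and *Gata1* were not analysed here. The sum of the 4 ranged from 18.6 to 123.3 in KO animals 1 and 2 and from 239.7 to 3394 in the others. Among B cell markers, *Cd79b* was at 580.6 to 2245 in the KO and 40.1 to 245 in the WT libraries, while *Ms4a1* and *Pax5* reached at most 4.39 and 7.35 in any library. The sum of 8 macrophage and dendritic cell markers was 1666 to 3283 in CD4+ and 5132 to 13677 in CD8+ and DP libraries, led by *Itgax* (606 to 1964 and 2857 to 11587). *Cd68* was higher there too (231 to 594 and 668 to 1516). *C1qa* (89.0 to 485 and 108 to 465), *C1qb* (125 to 583 and 65.1 to 407) and *Csf1r* (71.4 to 335 and 58.7 to 439) overlapped, as did *Lyz2*, *Adgre1* and *Flt3*. Of the pair of NK cell markers, *Ncr1* was at most 12.9 and *Klrb1c* gave nearly all of the sum, which was higher in each KO library of a subset (219.9 to 1547 against 111 to 177 in CD4+, 676 to 3066 against 70.1 to 319 in CD8+ cells). These values move with genotype, subset or animal, and the part of such cells in the results was not tested. In these bulk samples, fewer cycling cells and less RNA per cycling cell cannot be told apart.

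Replication transcripts were abundant in every group. Per kilobase of the longest RefSeq transcript, *Pcna* was the highest, with a mean of 16929 normalized counts over the 20 libraries, followed by *Rrm2* (5895), *Mcm3* (5257), *Mcm5* (5113) and *Mcm7* (5086). *Ccne2*, cyclin E2, was the lowest at 137 per kilobase. Next above it stood *Mcm10* (500.1), *Cdc6* (524) and *Pole* (528).

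A single level per library was formed as the median, over the 37 genes, of the log2 value minus that gene's mean over all 20 libraries. This level stood at -0.07, 0.04, -0.05 and -0.27 in the WT CD4+ libraries and 0.36, 0.36, 0.34 and 0.31 in their CD8+ counterparts. For KO animals it came to -0.93, 0.12, -0.15 and -0.69 in the CD4+ subset, -0.74, 0.50, 0.39 and -0.08 in the CD8+ subset and -0.52, 0.69, 0.42 and 0.05 in the DP subset. The WT libraries lay close together and apart by subset, while the KO libraries spread over more than 1 log2 unit within each subset, with animal 1 lowest and animal 2 highest each time. The same quantity for 20 mitosis genes, none of them in the list, followed this order: -1.19, 0.37, -0.15 and -0.63 in KO CD4+, -1.03, 0.59, 0.39 and 0.18 in KO CD8+ and -0.80, 0.63, 0.27 and 0.21 in KO DP cells.

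**Figure D1:**
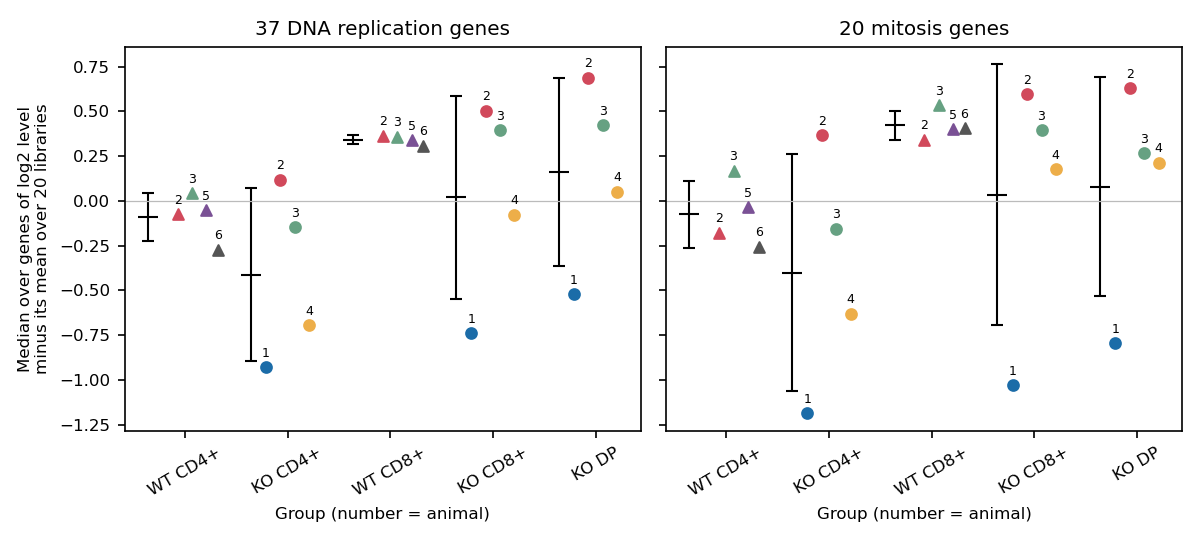
Level of the 37 DNA replication genes (left) and of 20 mitosis genes (right) per library, as the median over genes of the log2 level minus its mean over the 20 libraries. Points are libraries with their animal numbers (circles KO, triangles WT), and bars give the mean and SD of 4 libraries. KO animal 1 is the lowest and animal 2 the highest KO library in each subset in both panels, and the WT CD8+ libraries lie between 0.31 and 0.36 in the left panel.

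Gene by gene, the lowest KO animal was more often the same than the highest. Animal 1 was the lowest of the 4 KO animals in CD4+, CD8+ and DP cells alike for 30 of 37 members, against 10.0% of the 12183 genes examined. Animal 2 was the highest in all 3 subsets for 19 members, against 6.94% of genes, and animal 3 for 3 members, against 6.97%. Animals 1 and 4 were the highest in all 3 subsets for 0 members, against 9.82% and 5.74% of genes. In single subsets, animal 3 was the highest for 12 members in CD8+ and for 10 in DP cells, and animals 1 and 4 for none. The share of all genes in single subsets was not counted. Within KO CD4+ cells the highest library exceeded the lowest by a median of 2.05-fold, from 1.19-fold for *Rfc2* to 5.00-fold for *Ccne2*. The median ratio was 2.44-fold in KO CD8+ and 2.44-fold in KO DP cells, against 1.27-fold in WT CD4+ and 1.09-fold in WT CD8+ cells.

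Every member had a larger SD on the log2 scale among the KO than among the WT libraries, in both subsets. The ratio of the SDs had a median of 3.34 over the 37 genes in CD4+ cells (1.82 to 25.0) and of 10.9 in CD8+ cells (4.39 to 97.7). Over all genes tested, the KO libraries had the larger SD for 81.0% in CD4+ cells, with a median ratio of 1.87, and for 89.1% in CD8+ cells, with a median ratio of 2.50. No test was run on the ratio.

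**Figure D2:**
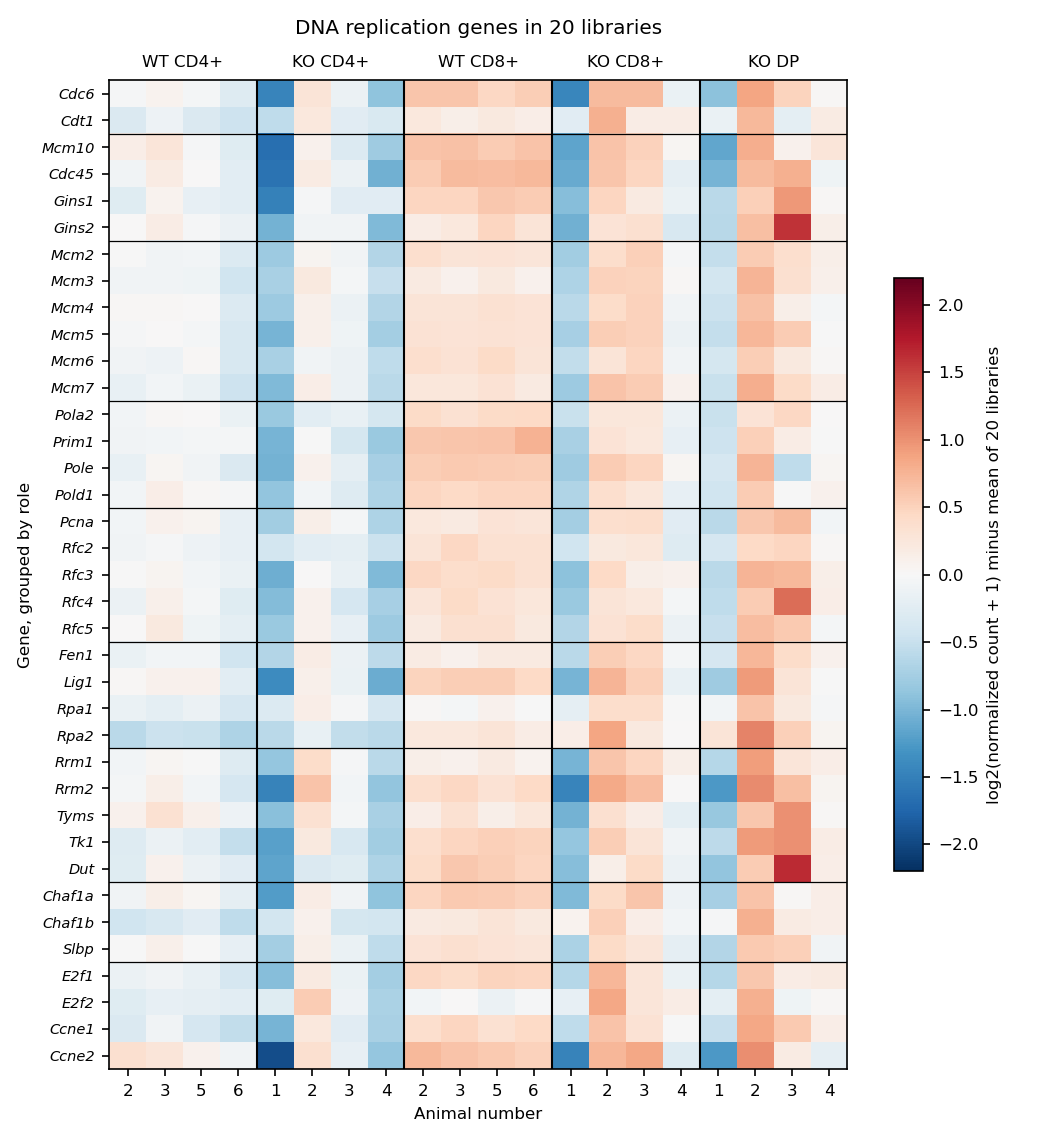
The 37 genes by role (rows) in the 20 libraries (columns, by animal number), as log2(normalized count + 1) minus the gene's mean over all libraries. Blue marks lower and red higher values. The column of KO animal 1 is blue for most genes in each of its 3 subsets, and that of KO animal 2 in DP cells is red throughout.

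Origin licensing was represented by *Cdc6* and *Cdt1*. *Cdc6*, an ATPase that recruits the helicase ring, had normalized counts of 809, 2669, 2006 and 1198 in KO CD4+, 809, 3554, 3559 and 2000.2 in KO CD8+ and 1173, 4016, 3077 and 2234 in KO DP cells. In WT libraries it stood at 2163, 2313, 2141 and 1808 in WT CD4+ and 3369, 3345, 3008 and 3190.5 in WT CD8+ cells. KO CD4+ and WT CD4+ cells overlapped, and KO animals 1 and 4 lay below every WT library of their subset. *Cdt1*, the partner that delivers the ring and is destroyed in S phase, ran at 2406, 4194, 3002 and 2833 in KO CD4+, 2985, 6101, 3994 and 3969 in KO CD8+ and 3223, 5835, 3063 and 4049.9 in KO DP cells. The WT values were 2848, 3293, 2863 and 2589 in WT CD4+ and 4204, 3895, 4110.3 and 3964 in WT CD8+ cells, and KO values lay on both sides of them.

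*Mcm10* and *Cdc45* act in the step that turns the ring into a helicase. For *Mcm10* the normalized counts were 554, 1880.3, 1431 and 1021 in KO CD4+, 783, 2726, 2502 and 1799 in KO CD8+ and 799.5, 3073, 1887 and 2122 in KO DP cells. Against these stood 1937, 2112, 1721 and 1469 in WT CD4+ and 2708, 2738, 2602 and 2717 in WT CD8+ cells. *Cdc45*, a subunit of the active helicase, gave 672, 2339, 1891 and 991 in KO CD4+, 960.5, 3175, 2860.1 and 1807 in KO CD8+ and 1016, 3342, 3572 and 1946 in KO DP cells. Its WT values were 1953, 2344, 2086 and 1765 in WT CD4+ and 3058, 3344, 3319 and 3403 in WT CD8+ cells. In KO animal 1 both genes were below every WT library of the same subset. *Gins2*, a GINS subunit, was measured at 575, 1112, 1114 and 604 in KO CD4+, 565, 1463, 1501 and 927 in KO CD8+ and 769, 1868, 3547 and 1297 in KO DP cells. WT cells held 1190.1, 1319, 1154 and 1077 in WT CD4+ and 1322, 1387, 1641 and 1444 in WT CD8+ cells, and the 3547 of DP cells of animal 3 was the highest value of the gene in any library. *Gins1* ranged from 278 in KO CD4+ cells of animal 1 to 1516 in DP cells of animal 3.

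The helicase ring is built of Mcm2 to Mcm7, and KO animal 1 had the lowest value of every subunit in each subset. *Mcm2* had normalized counts of 6495, 11719, 10612 and 7240.3 in KO CD4+, 6599, 14658, 16242 and 11074 in KO CD8+ and 7833, 16651, 14548 and 12339.6 in KO DP cells. The WT libraries gave 11201, 10698, 10824 and 9161 in WT CD4+ and 14491, 13639, 13943 and 13598 in WT CD8+ cells. *Mcm5* had 8219.6, 18141, 15596 and 10001 in KO CD4+, 10042, 24479, 23849.6 and 15288 in KO CD8+ and 11711, 27712, 24739.7 and 16584 in KO DP cells, and lower values in animals 1 and 4 than in animals 2 and 3 in each subset. In WT libraries *Mcm5* stood at 16356, 16911, 16282 and 13053 in WT CD4+ and 20808, 20599, 20757 and 20743 in WT CD8+ cells. Over the ring's 6 genes, the median log2 difference of KO from WT was -0.25 in CD4+ and -0.25 in CD8+ cells, with none past the threshold in either subset.

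Among polymerase genes, *Prim1* encodes the primase subunit that makes the RNA primer. Its normalized counts were 1159.6, 2328, 1803 and 1338 in KO CD4+, 1431, 2918, 2774 and 2084 in KO CD8+ and 1714, 3406, 2644 and 2335 in KO DP cells. The WT libraries held 2224, 2272, 2288 and 2275 in WT CD4+ and 3557, 3614, 3623 and 3987 in WT CD8+ cells. In CD8+ cells every KO library was below every WT library, and in CD4+ cells KO animal 2 was above and the other KO animals were below the WT range. *Pold1*, the catalytic subunit of polymerase delta, was at 2804, 4915, 4214 and 3194 in KO CD4+, 3238, 6605, 6072 and 4505 in KO CD8+ and 3803, 7524, 5078 and 5491 in KO DP cells. WT cells had 4897, 5699, 5235 and 5045 in WT CD4+ and 7137, 6956, 7151 and 7091 in WT CD8+ cells, with no overlap in CD8+ cells and KO animal 2 within the WT range in CD4+ cells. *Pole*, the catalytic subunit of polymerase epsilon, gave 1719, 3800.0, 3094 and 2133 in KO CD4+, 2059, 5251, 4947 and 3674 in KO CD8+ and 2756, 5958, 2403 and 3667 in KO DP cells. Its WT values were 3187, 3659.9, 3347 and 2844 in WT CD4+ and 5157, 5289, 5232 and 5164 in WT CD8+ cells. *Pola2*, a regulatory subunit of polymerase alpha, ranged from 1741 to 2745 in KO CD4+ cells, below the lowest WT value of 2773.

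PCNA is the sliding clamp that holds polymerases on DNA, and the replication factor C genes *Rfc2* to *Rfc5* load it. *Pcna* counts were 12104, 22393, 19799.8 and 12830.1 in KO CD4+, 12274, 26545, 26892 and 17346 in KO CD8+ and 13558, 31093, 33130.2 and 19784 in KO DP cells. They were 19754, 21969, 21424 and 18106 in WT CD4+ and 24179, 23632, 25146 and 24655 in WT CD8+ cells. *Rfc3* had 767, 1619, 1448 and 817 in KO CD4+, 865, 2183, 1752 and 1713 in KO CD8+ and 1063, 2698, 2654 and 1762 in KO DP cells. Animals 1 and 4 were again the lowest in each subset, and the WT libraries stood at 1600.1, 1680.4, 1554 and 1456 in WT CD4+ and 2222, 2107, 2156 and 2036 in WT CD8+ cells. *Rfc2* varied least within KO CD4+ cells, from 3119.9 to 3728, and lay below the 4 WT libraries (3811 to 4219).

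On the lagging strand, FEN1 trims the flaps of Okazaki fragments and DNA ligase I joins them. *Fen1* was at 3150.0, 5496, 4488 and 3319.8 in KO CD4+, 3286, 7174, 6759 and 4808 in KO CD8+ and 3813, 8169.6, 6487 and 5249 in KO DP cells. Its WT counts were 4464, 4736, 4749 and 3617 in WT CD4+ and 5564, 5268, 5654 and 5653 in WT CD8+ cells. *Lig1* spread further, with 3491, 9917, 8231 and 4287 in KO CD4+, 4480.0, 15416, 13159.7 and 8151 in KO CD8+ and 5332, 17502, 11096 and 9108 in KO DP cells. WT libraries had 9258, 9691, 9791 and 7758 in WT CD4+ and 12776, 13295, 13304 and 12307 in WT CD8+ cells, within the span of the KO animals in both subsets. RPA coats single-stranded DNA, and *Rpa2*, its middle subunit, had 5169, 6926, 5382 and 5141 in KO CD4+, 8668, 14271, 9046 and 7808 in KO CD8+ and 9511, 16649, 11176 and 8112 in KO DP cells. In WT cells *Rpa2* stood at 5194, 5638, 5555 and 4864 in WT CD4+ and 9113, 9113, 9502 and 8687 in WT CD8+ cells. KO CD4+ animals 1, 3 and 4 fell in the WT CD4+ range for *Rpa2*, and animal 2 was above it in both CD4+ and CD8+ cells.

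Deoxynucleotides are supplied by ribonucleotide reductase, thymidylate synthase, thymidine kinase and dUTPase. *Rrm2*, the S-phase subunit of the reductase, had 4143, 17863, 11079.7 and 6337 in KO CD4+, 4231, 20465, 18426 and 11546 in KO CD8+ and 4777, 23684, 18140.2 and 11946 in KO DP cells. WT libraries had 11129.6, 12627, 11115 and 8872 in WT CD4+ and 14939.8, 15808, 14338 and 15546 in WT CD8+ cells. KO animal 2 was above and KO animals 1 and 4 were below every WT library in both subsets. *Tyms*, which makes dTMP, was at 1755, 4199.6, 3201 and 2024 in KO CD4+, 1601, 4238, 3699 and 2854 in KO CD8+ and 1853, 4989, 6622 and 3375 in KO DP cells. WT counts of *Tyms* were 3532, 4190.1, 3583 and 3055 in WT CD4+ and 3664, 4164, 3624 and 3924 in WT CD8+ cells, with overlapping subsets. For *Tk1*, the salvage kinase, the values were 1800.1, 4796, 3238 and 2432 in KO CD4+, 2301, 6036, 5042 and 3931 in KO CD8+ and 2787, 7964, 8265 and 4615 in KO DP cells. They were 3412, 3785, 3511 and 2889 in WT CD4+ and 5351, 5722, 5939 and 5792 in WT CD8+ cells. *Dut*, which removes dUTP, gave 3833, 6856, 7127 and 5334 in KO CD4+, 4477, 9382, 11368 and 7805 in KO CD8+ and 4674, 12608, 26628 and 9438 in KO DP cells. The WT counts were 7138, 9089, 7788 and 7218 in WT CD4+ and 11259, 12817, 12368 and 11885 in WT CD8+ cells, so that all KO CD4+ libraries were below all WT CD4+ libraries, the nearest pair being 7127 and 7138.

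Chromatin assembly and histone supply were represented by *Chaf1a*, *Chaf1b* and *Slbp*. *Chaf1b*, a subunit of chromatin assembly factor 1, was at 1966, 2777, 1980.5 and 1966 in KO CD4+, 2741, 3729, 2882 and 2501 in KO CD8+ and 2563, 4497, 2957 and 2889 in KO DP cells. In WT cells it stood at 1923, 2032, 2197 and 1755 in WT CD4+ and 2988, 3025, 3156 and 3000.5 in WT CD8+ cells, and the KO and WT ranges overlapped in both subsets. *Slbp*, which binds the stem-loop of histone transcripts, had 4264, 7839.5, 6470.4 and 4843 in KO CD4+, 4432, 9608, 8584 and 6251 in KO CD8+ and 4563, 10638, 10327 and 6770.0 in KO DP cells. WT libraries had 7137, 7705, 7110.3 and 6306 in WT CD4+ and 8847, 9173, 8822 and 8652 in WT CD8+ cells.

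The E2F and cyclin E genes control entry into S phase. *E2f1* was measured at 922, 2007, 1592 and 1042 in KO CD4+, 1140.4, 2903, 2112 and 1591 in KO CD8+ and 1138, 2664, 1959.9 and 2008 in KO DP cells. Its WT counts were 1601, 1671, 1571 and 1366 in WT CD4+ and 2395, 2338, 2471 and 2429 in WT CD8+ cells. *E2f2* gave 6544, 11562, 7285 and 4878 in KO CD4+, 6968, 14323, 9479 and 8844 in KO CD8+ and 6815, 13593, 7411 and 8062 in KO DP cells. WT libraries stood at 6571, 6965, 6852 and 6692 in WT CD4+ and 7570.2, 7926, 7264 and 7800.1 in WT CD8+ cells, below KO animal 2 in both subsets. *Ccne1*, cyclin E1, had 1292, 3104, 2228 and 1607 in KO CD4+, 1784, 4062, 3287 and 2621 in KO CD8+ and 1861, 4747, 3933 and 2929 in KO DP cells. It was 2106, 2490.4, 2039 and 1801 in WT CD4+ and 3395, 3639.5, 3321 and 3583 in WT CD8+ cells. *Ccne2* was at 96.6, 483, 330.4 and 208 in KO CD4+, 135, 627, 681 and 309.7 in KO CD8+ and 155, 765, 424 and 329 in KO DP cells, and in animal 1 it was lower than in any WT library. WT counts of *Ccne2* were 480.3, 450.4, 403 and 356 in WT CD4+ and 618, 582, 562 and 533 in WT CD8+ cells.

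The first question was whether the loss of *Dnmt3a* changed these genes. Values were compared with limma (mean-variance trend, 2-sided) on log2(normalized count + 1), over genes with a mean of at least 10, with Benjamini-Hochberg adjustment over all genes tested and a threshold of 0.05. In CD4+ cells 1 of 37 members passed, against 18.4% of the 12391 genes tested. It was *Pold1*, with a KO minus WT log2 difference of -0.50 (SE 0.16, adjusted p = 0.0496). With *Pold1*, 8 members had an unadjusted p under 0.05, against 36.4% of all genes. Of the 37 differences, 32 were below 0, with a median of -0.33 beside -0.05 over all genes. In 3 genes, *Pola2*, *Rfc2* and *Dut*, the 4 KO values were all below the 4 WT values (exact permutation, 2-sided, p = 0.0286, which is the minimum for groups of 4), and 13.3% of all genes had such an arrangement.

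In CD8+ cells 1 of 37 members passed, against 25.2% of 12383 genes. It was *Prim1*, with a log2 difference of -0.74 (SE 0.20, adjusted p = 0.0249). *Pold1* differed by -0.53 (SE 0.19, adjusted p = 0.0714) and *Prim1* in CD4+ cells by -0.50 (SE 0.18, adjusted p = 0.0777), neither past the threshold. The median over members was -0.40, beside -0.04 over all genes, and 33 differences were below 0. For 5 genes, *Gins1*, *Pola2*, *Prim1*, *Pold1* and *Rfc2*, the KO libraries lay below all WT libraries (exact permutation test, p = 0.0286), as was so for 15.5% of genes. *E2f2* had the highest difference (0.32) and did not pass.

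The number of calls changed when single libraries were left out. Without KO CD4+ cells of animal 2, the highest KO library, 14 members passed in CD4+ cells, all lower, against 21.1% of all genes. Without animal 3, 5 passed (all genes, 23.8%). None passed without animal 1 (10.9%), animal 4 (16.8%) or any 1 WT library (5.08% to 8.95%). In CD8+ cells 6 passed without animal 2 (all genes, 22.7%) and 5 without animal 3 (33.0%). Without animal 1, 3 passed, 2 lower and 1 higher (27.4%). None passed without animal 4 (20.01%) or any 1 WT library (13.2% to 14.2%). Where none passed, fewer of all genes were called too, beside 18.4% (CD4+) and 25.2% (CD8+) with all libraries. The loss of the 1 member call there cannot be told apart from the loss of calls over all genes. The intervals were wide: for *Rrm2* the 95% interval of the log2 difference ran from -1.16 to 0.45 for the CD4+ subset and from -1.31 to 0.55 for the CD8+ subset, and for *Mcm5* from -0.82 to 0.15 and from -0.81 to 0.29. Over the 37 genes the median half-width was 0.45 in CD4+ and 0.53 in CD8+ cells.

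By role, the median KO minus WT difference was lowest for the helicase activation genes (*Mcm10*, *Cdc45*, *Gins1*, *Gins2*), at -0.59 in CD4+ and -0.62 in CD8+ cells. It was highest for the lagging strand genes (*Fen1*, *Lig1*, *Rpa1*, *Rpa2*), at -0.02 and 0.01. Whether the roles differed from each other was not tested. Individual KO libraries lay outside the WT range in both directions. In CD4+ cells animal 1 was below every WT library for 34 members and animal 4 for 32, while animal 2 was above every WT library for 25 and below for 3, and animal 3 above for 3 and below for 9. In CD8+ cells animal 1 was below for 37 and animal 4 for 33, while animal 2 was above for 22 and below for 8, and animal 3 above for 16 and below for 15. Over all genes, a KO library was below the 4 WT libraries for 32.2% to 42.5% and above them for 30.5% to 38.6%.

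**Figure D3:**
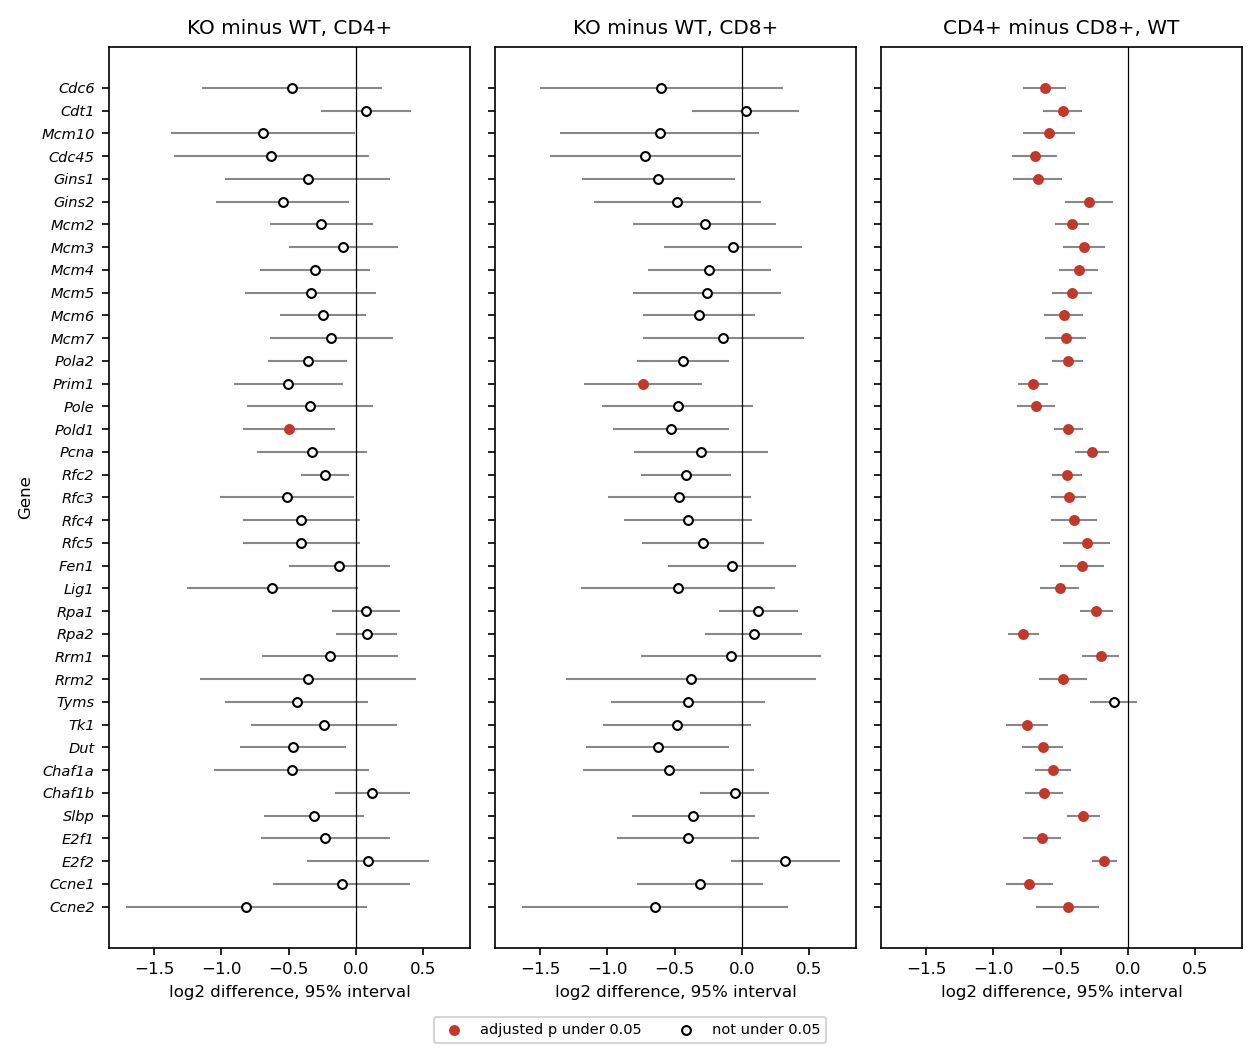
Log2 differences of the 37 genes with 95% intervals, for KO minus WT in CD4+ cells (left), KO minus WT in CD8+ cells (middle) and CD4+ minus CD8+ in WT cells (right), with 4 libraries a group. Red points passed an adjusted p of 0.05 (limma): 1 on the left, 1 in the middle and 36 on the right, where the intervals are narrowest.

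The second question was how the subsets differed. In WT mice 36 of 37 members were lower in CD4+ than in CD8+ cells, against 44.5% of 12559 genes called in either direction and 22.2% called lower. The median difference was -0.45 (all genes, -0.01), from -0.78 (SE 0.05, adjusted p = 9.57e-08) for *Rpa2* to -0.11 (SE 0.08, adjusted p = 0.322) for *Tyms*, the gene that did not pass. *Tk1* differed by -0.75 (SE 0.07, adjusted p = 2.18e-06), *Ccne1* by -0.73 (SE 0.08, adjusted p = 8.9e-06) and *Prim1* by -0.70 (SE 0.05, adjusted p = 1.55e-07). *Cdc45* fell by 0.69 and *Mcm5* by 0.41, and *Rrm1* was among the smallest called differences at -0.20 (SE 0.06, adjusted p = 0.0191). For 35 members, all but *Tyms* and *Rfc5*, every WT CD4+ library was below every WT CD8+ library, against 20.8% of genes.

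These calls depended on how small the WT spread was taken to be. When all 20 libraries shared a single estimate of the spread, KO libraries included, 3 of 37 passed, against 12.9% of all genes. The 20 mitosis genes fell as well in WT CD4+ cells, 20 of 20, with a median of -0.54. Centring each library on those mitosis genes, a scaling chosen after the data were seen, adds the same amount to the difference of each gene. Relative to the mitosis genes the median member difference was 0.04, beside 0.48 over all genes, and 6 members passed, against 68.1% of all genes: *Rpa2* and *Tk1* were lower in CD4+ cells, and *Rpa1*, *Rrm1*, *Tyms* and *E2f2* higher.

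In KO mice the direction was again lower in CD4+ cells for all 37 members, with a median of -0.44 (all genes, -0.01). Without regard to the animal, 1 gene passed, *Rpa2*, at -0.79 (SE 0.18, adjusted p = 0.0444), against 4.22% of 12189 genes. CD4+ and CD8+ cells of equal number were taken to come from the same animal. With the animal as a block in the fit 33 members passed, all lower in CD4+ cells, against 8.68% of genes called lower. *Rpa2* then had -0.79 (SE 0.08, adjusted p = 0.000153), *Mcm5* -0.49 (SE 0.07, adjusted p = 0.00128) and *Rrm2* -0.46 (SE 0.13, adjusted p = 0.0351). The exceptions were *Gins2*, *Rfc2*, *Rrm1* and *Tyms*. In WT cells the block left the count at 36, against 48.8% of all genes.

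Within each animal, CD8+ minus CD4+ cells gave a median member difference of 0.21, 0.39, 0.59 and 0.61 in KO animals 1 to 4, and of 0.45, 0.33, 0.45 and 0.64 in WT animals 2, 3, 5 and 6. KO animal 1, with the lowest levels, had the smallest of these differences, and its CD4+ library was the one with raised *Cd8a*. All 4 animals agreed in direction for 33 members in KO and 36 in WT, against 18.9% and 29.2% of genes higher in CD8+ cells of all 4. The difference between subsets was not found to depend on genotype at this threshold. In the interaction fit, KO minus WT in CD8+ less that in CD4+ cells, 0 of 37 members passed with limma, against 0.0161% of 12446 genes. None had an unadjusted p under 0.05, against 6.37% of genes, and edgeR and DESeq2 called 0 (all genes, 0.00803% and 0.169%). With the animal as a block 0 passed (all genes, 1.39%), and 2 had an unadjusted p under 0.05, against 15.2%. Without the block, the median member difference was -0.02, with a median half-width of the 95% interval of 0.69.

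**Figure D4:**
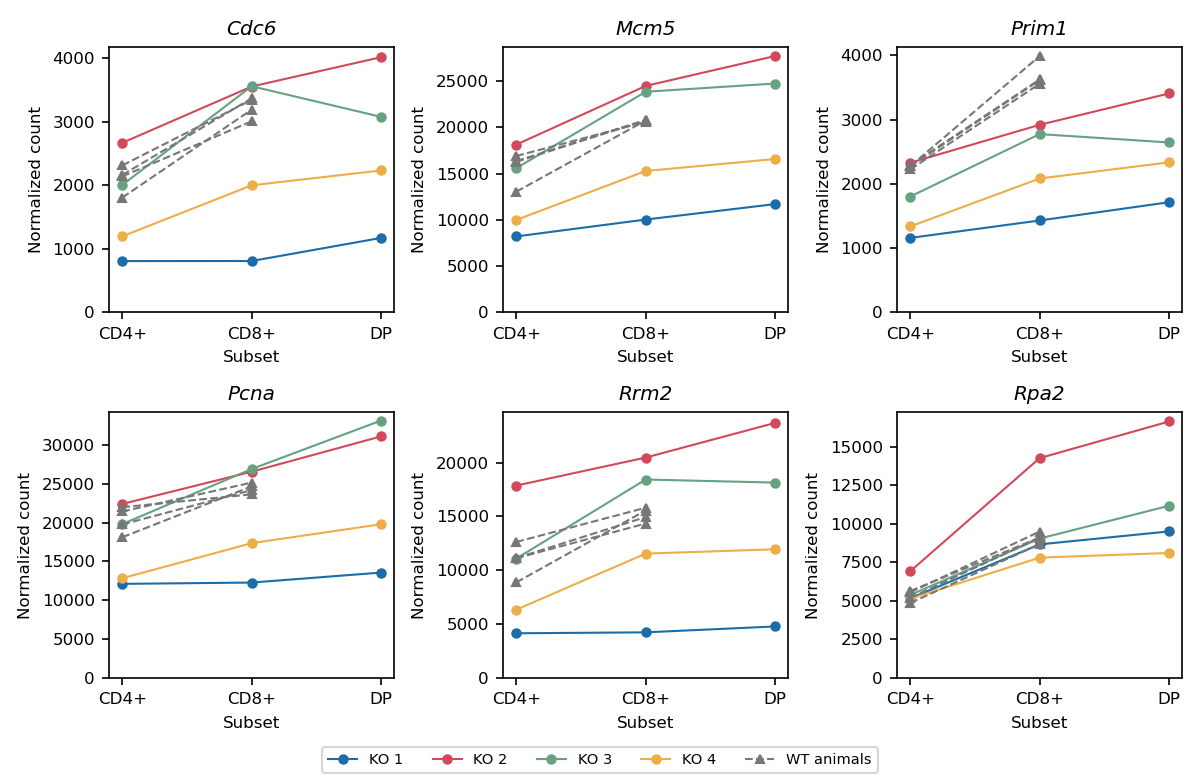
Normalized counts of 6 members by subset, with lines joining cells of the same animal (solid and coloured, KO animals 1 to 4; dashed grey, the 4 WT animals; no DP cells for WT). From CD4+ to CD8+ cells each line rises or, for KO animal 1 in the Cdc6, Pcna and Rrm2 panels, is nearly level, and the KO lines are far apart except in the CD4+ cells of the Rpa2 panel.

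The third question concerned DP cells, which carry both coreceptors. Against KO CD4+ cells all 37 members were higher in DP cells, with a median of 0.55 (all genes, -0.01), and 0 of 37 passed with limma without the block, against 1.95% of 12175 genes. Of the 37, 9 had an unadjusted p under 0.05, against 14.9% of all genes. edgeR called 0 (all genes, 1.58%) and DESeq2 called 1 (5.98%). *Rpa2* came nearest, at 0.96 (SE 0.21, adjusted p = 0.0521), and its 4 DP libraries were above its 4 CD4+ libraries (exact permutation test, p = 0.0286). With the animal as a block 20 members passed, all higher in DP cells, against 2.65% of genes called higher. Among them were *Rpa2* at 0.96 (SE 0.12, adjusted p = 0.00778), *Tk1* at 0.91 (SE 0.14, adjusted p = 0.0129), *Cdc6* at 0.66 (SE 0.11, adjusted p = 0.019) and *Mcm5* at 0.63 (SE 0.09, adjusted p = 0.0129). *Rrm2* had 0.56 (SE 0.13, adjusted p = 0.0539) and *Tyms* 0.53 (SE 0.17, adjusted p = 0.117). Every animal had 36 or 37 members higher in DP than in CD4+ cells. For 36 members all 4 animals agreed, against 18.9% of genes.

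Against KO CD8+ cells 0 of 37 members passed with limma, with edgeR, with DESeq2 or with the block, beside 0.00823% of 12153 genes with limma. None had an unadjusted p under 0.05, against 1.95% of all genes, and 8 did with the block, against 11.9%. The median difference was 0.12, and *Gins2* had the highest, 0.63 (SE 0.46, adjusted p = 0.871), with a 95% interval from -0.39 to 1.65. Within animals the median was 0.20, 0.22, -0.06 and 0.13. In all 4 animals alike, 16 members were higher in DP than in CD8+ cells, against 16.2% of genes. In animal 3, 20 members were lower in DP cells, and the share of all genes lower in that animal was not counted.

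DP cells of animal 3 stood apart in which members were high. Relative to the mean of the other DP libraries, the log2 level was 1.69 for *Dut*, 1.53 for *Gins2*, 1.17 for *Rfc4* and 1.07 for *Tyms*, and -0.71 for *Pole*, -0.47 for *Cdt1* and -0.29 for *E2f2*. The 6 members with a transcript of at most 1500 bases had a median of 0.89 (0.63 to 1.53), and the 16 with a transcript over 3000 bases one of 0.14 (-0.71 to 1.07). Spearman's rho between transcript length and this difference was -0.52 over the 37 members and -0.71 over 6253 genes with a mean of at least 1000, which share the library, and it was 0.07 and 0.06 over those genes for CD4+ and CD8+ cells of the same animal. This was also the library with the fewest genes detected and the highest neutrophil sum, and the part of these in the values was not tested. Without it, the median member difference of DP cells was 0.50 against CD4+ and 0.04 against CD8+ cells. In each, 0 members passed the threshold (all genes, 2.29% and 0.00824%).

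**Figure D5:**
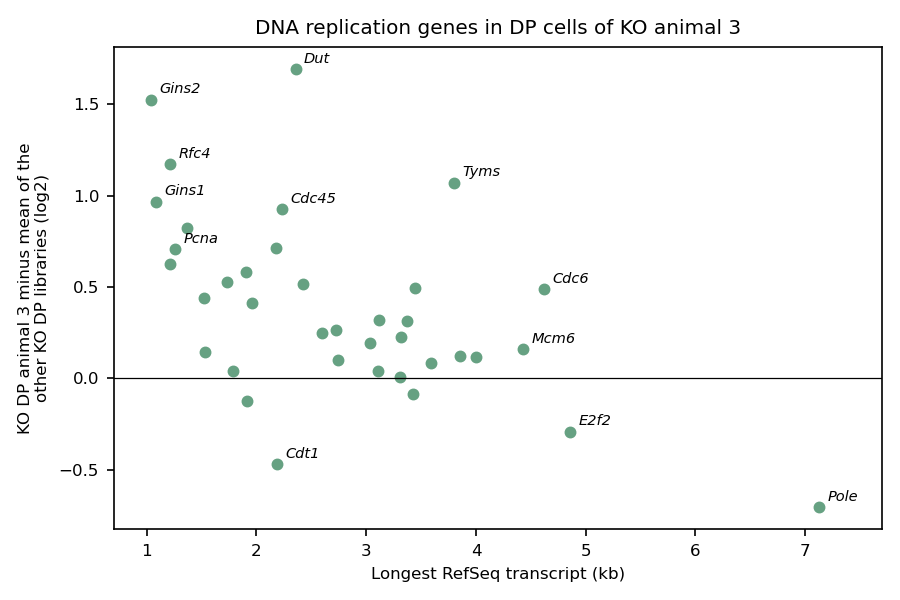
For each of the 37 genes, the log2 level in DP cells of KO animal 3 minus the mean of the other KO DP libraries (vertical axis) against the length of its longest RefSeq transcript (horizontal axis, kb). Gins2, Rfc4 and Gins1, with short transcripts, and Dut and Tyms lie highest, and Pole, with the longest transcript, lies lowest at -0.71.

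Other genes of the pathway, none of them among the 38, were counted in lists, to be read against the 18.4% (CD4+) and 25.2% (CD8+) of all genes called between KO and WT. Those shares hold both directions. In KO CD4+ cells 1210 of 12391 genes were called lower and 1064 higher. In KO CD8+ cells 1552 of 12383 were called lower and 1566 higher. Of 19 further subunits of the fork, 2 were lower in KO than in WT CD4+ cells and 2 in CD8+ cells, with medians of -0.29 and -0.36. Among 16 genes of the prereplicative complex and origin firing, 2 were lower in CD4+ and 3 in CD8+ cells. The 20 mitosis genes had 0 called in either subset with limma, with medians of -0.32 and -0.32, close to those of the replication genes. For 27 genes of G1/S control, 1 was higher and 1 lower in CD4+ cells, and 2 higher and 3 lower in CD8+ cells. Of 17 genes of nucleotide supply, 2 were higher in KO CD4+ cells, and 1 was higher and 1 lower in KO CD8+ cells. The 16 genes of chromatin and repair at the fork had 1 lower in CD4+ and 0 in CD8+ cells. Between WT CD4+ and WT CD8+ cells, 16 of the 19 fork subunits, 11 of the 16 prereplicative genes and 13 of the 16 chromatin and repair genes were lower in CD4+ cells, against 22.2% of all genes, and 0, 1 and 1 were higher. G1/S control had 11 lower and 7 higher of 27, and nucleotide supply 6 lower and 2 higher of 17.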

How the data were processed

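The authors sequenced poly(A)-selected, strand-specific paired-end libraries, aligned them to mm10 with STAR (2.7.2b in the submitters' processing notes), made strand-aware counts of read pairs over UCSC gene exons, and scaled these with DESeq2. Signal in the deposited table is counts the authors divided by 1 size factor per library, and multiplying back gave whole reads for 100% of values (within 0.01). The depth was 37547651 to 46966318 reads per library. Samples were grouped by genotype, subset and the number in their labels, read as the animal, and P values measure the spread between these animals.

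limma 3.58.1 in R 4.3.3 was fitted to the libraries of each comparison after a log2 transform with a pseudocount of 1. Genes whose mean was 10 or more were kept, and p-values were adjusted over all of them by Benjamini-Hochberg, with a threshold of 0.05. Single genes had 2-sided exact permutation tests. Members, lists, markers and motifs were chosen with earlier results of these data known. Values in every library were given for a fixed set of members of each role and for other members called between KO and WT. Positions, transcripts and promoters are RefSeq, GRCm38.p6.

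Equal numbers deviated alike from their group means within KO (r of 0.38 to 0.71 across genes with a mean of at least 50) and within WT (0.22 to 0.31). Equal numbers in the labels were taken as the same animal, and the animal served as a block. Alternatives were a pseudocount of 10, no filter, a minimum mean of 50, quantile and 75th-percentile scaling, no trend, edgeR 4.0.16 and DESeq2 1.42.0 on whole reads, a joint fit of 20 libraries, the block, each library left out, and centring on mitosis genes. The limma and edgeR calculations were tested on simulated data with the same spread in both groups and no animal effect. The larger spread among KO libraries and the block were not part of that test. No column of another sample was present.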

Additional observations from a re-analysis of the deposited data

Results flagged for a closer look

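Each member was examined in each group of 4 libraries for a highest or lowest library whose gap to the rest, as a share of the group's range, exceeds Dixon's 95% criterion for 4 values, which chance meets in about 1 in 20 groups. Of 185 such groups, 6 met it. In WT CD4+ cells, animal 6 was the lowest for 3 helicase genes: *Mcm3* at 11377 normalized counts (next 14395), *Mcm4* at 9369.75 (next 11629) and *Mcm5* at 13053 (next 16282). In KO CD4+ cells, animal 2 was the highest for *Rpa2*, at 6926 (next 5382), and for *Chaf1b*, at 2777 (next 1980.5). In WT CD8+ cells, animal 6 was the highest for *Prim1*, at 3987 (next 3623). Without WT CD4+ animal 6 the number of members called between WT CD4+ and WT CD8+ cells was 36, against 44.9% of all genes.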

How the results depend on the processing

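The numbers of members called between KO and WT cells were unstable. In CD4+ cells (1 as reported), 0 were called with no filter (all genes, 12.7%), no trend (11.3%), edgeR (18.3%), the joint fit (10.4%) or centring on mitosis genes (1.90%). Quantile scaling called 2 (17.4%), the replicate block 3 (17.9%), namely *Pold1*, *Gins2* and *Dut*, and 75th-percentile scaling 5 (21.2%). In CD8+ cells (1 as reported), 0 were called with no trend (all genes, 20.6%) or with centring on mitosis genes (0.993%). DESeq2 called 2 (31.0%), the replicate block 2 (23.1%), namely *Prim1* and *Rfc2*, and quantile (23.7%) or 75th-percentile scaling (23.8%) 5. KO and WT share the numbers 2 and 3 without sharing animals (r of 0.03 to 0.17, against -0.17 to 0.26 for different numbers). The block between KO and WT therefore joined different animals, and its calls rest on no pairing. Leaving out single libraries gave 0 to 14 in CD4+ (all genes, 5.08% to 23.8%) and 0 to 6 in CD8+ cells (13.2% to 33.0%). The medians were then -0.48 to -0.16 and -0.53 to -0.13.

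Between KO DP and KO CD4+ cells (0 as reported), 1 was called with a pseudocount of 10 (all genes, 2.41%), quantile (2.48%) or 75th-percentile scaling (1.84%) or DESeq2 (5.98%). The joint fit called 2 (11.7%), the replicate block 20 (7.06%), and a library left out gave 0 to 1 (0.689% to 2.29%). Between KO CD4+ and KO CD8+ cells (1 as reported), 0 were called with no trend (all genes, 2.45%), edgeR (3.75%) or centring on mitosis genes (1.99%). The replicate block called 33 (18.9%), and a library left out gave 0 to 1 (1.91% to 3.99%). Between WT CD4+ and WT CD8+ cells (36 as reported), 3 were called with the joint fit (all genes, 12.9%) and 6 after centring (68.1%), with a median of 0.0368. With a library left out, 35 to 36 were called (39.7% to 44.9%). Between KO DP and KO CD8+ cells and in the interaction, 0 were called under every alternative run, the replicate block included, while the median ranged from -0.11 to 0.38 and from -0.16 to 0.25 with a library left out. Over all genes, 0.00625% to 0.0247% were called between KO DP and KO CD8+ cells and 0% to 1.39% in the interaction. The block changed no other counts of members called.

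Centring moved the median difference of all genes to 0.21 (KO versus WT CD4+), 0.29 (KO versus WT CD8+), 0.48 (WT CD4+ versus CD8+), 0.41 (KO CD4+ versus CD8+) and -0.46 (KO DP versus CD4+), and 75th-percentile scaling moved it to -0.16 and -0.15 between KO and WT CD4+ and CD8+ cells. Centring adds the same amount to each gene's difference, so the signs it gives are relative to the mitosis genes. Of the single members followed through the alternatives, *Rfc2* then passed 0 between KO and WT CD4+ (0.0264) and *Mcm5* between KO and WT CD8+ cells (0.0685). Between WT CD4+ and WT CD8+ cells, *Mcm5* (0.0746), *Rrm2* (0.00585), *Pcna* (0.219), *Rfc5* (0.181), *Rrm1* (0.286) and *Tyms* (0.382) did so. These are not all the sign changes. Between WT CD4+ and WT CD8+ cells, 23 of the 37 members were above 0 after centring and 14 below. With single libraries left out, *Rrm2* ranged from -0.65 to 0.11 and *Mcm5* from -0.43 to 0.00114 between KO and WT CD8+ cells, both above 0 without KO CD8+ replicate 1. Comparisons with KO libraries had median 95% half-widths of 0.45 to 0.75 on the log2 scale, against 0.14 between WT subsets, without the block.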
